A study of Mus musculus with 16 samples.

Results

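Neutrophil granule genes were followed in the livers of mouse offspring as 10 genes in 3 stages of granule formation. The primary granule genes were Mpo, Ctsg and Prtn3, the secondary granule genes were Ltf, Camp and Ngp, and the later genes were Mmp8, Mmp9, S100a8 and S100a9. They were taken by gene name from the spots of the arrays, all 10 were found, and they were 10 of 19363 genes tested. The probe of each gene was chosen by its measured brightness, as the one with the highest mean in the liver channel, and no other measured value entered the rule. A second probe was measured for Ltf and for Mmp9. The genes were picked with earlier results of the same arrays known, among them that granulocyte genes were higher in exposed females, so the exposure differences below are a description of these genes and no independent evidence of a direction.

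A neutrophil makes its granules in order while it matures in the bone marrow and, early in life, in the liver. The serine proteases and myeloperoxidase of the primary (azurophil) granules are transcribed in promyelocytes, lactoferrin and the other proteins of the secondary (specific) granules in myelocytes and metamyelocytes, and gelatinase later still. Transcripts of the early genes therefore come mostly from precursor cells, and S100a8 and S100a9, whose proteins lie in the cytosol and not in a granule, are also abundant in mature neutrophils and in monocytes.

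The 250 bases before the start of a gene are shown for 6 members, the 3 primary genes, which followed one another most closely in the liver channel, and 1 secondary and 2 later genes that differed from them in exposure or in correlation. They are RefSeq sequences of build GRCm38.p6, 5′ to 3′ on the strand of the gene: Mpo at chr11:87793534-87793783 (plus strand), Ctsg at chr14:56102575-56102824 (minus), Prtn3 at chr10:79879417-79879666 (plus), Ngp at chr9:110419558-110419807 (plus), Mmp8 at chr9:7558179-7558428 (plus) and S100a8 at chr3:90668821-90669070 (plus). Capitals mark matches on either strand to TTNNGNAA, a short form of the site of C/EBP factors, or to GAGGAA, a core of the site of PU.1, both regulators of myeloid genes.
Mpo: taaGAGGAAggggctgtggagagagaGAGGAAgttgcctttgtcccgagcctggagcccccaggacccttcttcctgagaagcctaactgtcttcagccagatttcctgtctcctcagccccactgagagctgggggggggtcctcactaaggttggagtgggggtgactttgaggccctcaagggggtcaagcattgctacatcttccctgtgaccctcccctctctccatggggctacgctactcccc
Ctsg: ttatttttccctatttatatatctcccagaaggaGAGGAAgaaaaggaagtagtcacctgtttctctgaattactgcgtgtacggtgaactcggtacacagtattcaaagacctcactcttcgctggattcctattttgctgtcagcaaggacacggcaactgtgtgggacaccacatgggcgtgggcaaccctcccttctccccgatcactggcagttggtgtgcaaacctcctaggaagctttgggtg
Prtn3: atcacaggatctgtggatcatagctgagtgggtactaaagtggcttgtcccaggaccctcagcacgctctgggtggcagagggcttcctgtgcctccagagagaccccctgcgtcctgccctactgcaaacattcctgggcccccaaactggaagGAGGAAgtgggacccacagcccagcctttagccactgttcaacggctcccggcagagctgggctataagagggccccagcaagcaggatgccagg
Ngp: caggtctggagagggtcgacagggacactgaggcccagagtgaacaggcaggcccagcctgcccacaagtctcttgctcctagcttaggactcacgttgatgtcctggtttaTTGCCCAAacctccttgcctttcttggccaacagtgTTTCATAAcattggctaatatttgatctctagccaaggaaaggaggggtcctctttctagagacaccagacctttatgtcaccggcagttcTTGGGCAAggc
Mmp8: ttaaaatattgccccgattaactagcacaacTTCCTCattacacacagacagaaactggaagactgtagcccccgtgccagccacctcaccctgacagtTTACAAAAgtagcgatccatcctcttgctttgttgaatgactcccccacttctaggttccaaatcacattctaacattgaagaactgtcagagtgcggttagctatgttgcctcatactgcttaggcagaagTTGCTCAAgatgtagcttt
S100a8: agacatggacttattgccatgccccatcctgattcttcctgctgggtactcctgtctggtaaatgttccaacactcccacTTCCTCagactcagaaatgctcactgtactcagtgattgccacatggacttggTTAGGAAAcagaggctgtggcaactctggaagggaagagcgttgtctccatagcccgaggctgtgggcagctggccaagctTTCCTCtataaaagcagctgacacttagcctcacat
An entry was found for 9 of the 10 members. The letters TTNNGNAA or their reverse TTNCNNAA were present in 5 of the 9 windows, those of Ltf, Ngp, Mmp8, S100a8 and S100a9, and in 36.8% of all 32851 windows of the same length. The letters GAGGAA or their reverse TTCCTC were present in 6 of the 9, those of Mpo, Ctsg, Prtn3, Ltf, Mmp8 and S100a8, and in 23.3% of all windows. No match of the first kind lay in the 3 primary windows, and the Camp window held neither. S100a8 also held TATAAA, searched on the gene's strand alone, from 30 to 25 bases before the start, directly after a TTCCTC match, as 7.59% of all windows hold these letters anywhere. No C/EBP-type and PU.1-type matches overlapped in the 9 windows. A match is a run of letters and does not show that a factor binds.

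The offspring were C57BL/6BomTac mice whose time-mated dams had breathed clean filtered air or an aerosol of UV-Titan at about 42 mg/m3, a titanium dioxide of nano size with a coated surface, for 1 hour a day from gestation day 8 to gestation day 18. Of the females, 3 were controls and 5 were exposed through the dam, and of the males 4 were controls and 4 were exposed, with 1 two-colour array for each animal and a universal mouse reference RNA in the other channel of every array. The labels name neither the age of the offspring nor the litter, so animals that share a litter cannot be told from animals that do not, and p-values rest on the spread between these 16 animals. The label fields and the labelling protocol name opposite dyes. The liver channel was taken as red because the median log2 ratio of red over green over 7 hepatocyte markers was 4.42 to 5.37 on the 16 arrays, and Xist and Ddx3y followed the sex label on all 16.

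Of the spots, 57.7% to 67.1% in red and 62.7% to 69.8% in green were well above background. Female control replicate 35 had the lowest share in both channels. Weights that limma gave the arrays by ratio, for use in an alternative, were lowest for female control replicates 35 (0.42) and 25 (0.59). The third female control, replicate 40, had 1.69, and the highest weight was 1.95 (male UV-Titan replicate 4). The arrays lay on 5 slides of 3 or 4 arrays. Slide 5 held female control replicate 25, female UV-Titan replicate 16 and male UV-Titan replicate 17, and stood apart in several members, as given below. All 10 members were well above background in red on all 16 arrays, and no spot was saturated. In green 9 members were well above background on all 16 arrays and Mmp8 on 14. Since whole pieces of liver were measured, a change in the number of neutrophils and a change in RNA per neutrophil cannot be told apart.

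The probes are 60 bases long, and the array files place them in build mm7. The probe of Mpo, the peroxidase of the primary granule, lies on chromosome 11 between 87873508 and 87874283, a stretch longer than the probe, so it is split in the genome. The same holds for Prtn3 (proteinase 3, chromosome 10, 79661141 to 79661957) and for Ngp (neutrophilic granule protein, chromosome 9, 110119702 to 110120250). The probes of Ctsg (cathepsin G, chromosome 14, 50967311 to 50967370), Ltf (lactoferrin, chromosome 9, 110738071 to 110738130) and Camp (the cathelicidin antimicrobial peptide, chromosome 9, 109544107 to 109544166) are unbroken. So are those of Mmp8 (neutrophil collagenase, chromosome 9, 7566361 to 7566420), Mmp9 (gelatinase B, chromosome 2, 164695457 to 164695516), S100a8 (chromosome 3, 90800058 to 90800117) and S100a9 (chromosome 3, 90822865 to 90822924). S100a8 and S100a9 encode both subunits of calprotectin, a calcium- and zinc-binding protein.

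All values are on the log2 scale. Ratios are red over green, liver over reference, and red-alone values are the liver channel normalised between arrays. A difference is UV-Titan minus control and is followed by its standard error (SE). Against the reference RNA, 9 members were brighter in liver on all 16 arrays, with ratios from 1.68 (Prtn3 in female control replicate 25) to 7.61 (S100a9 in male UV-Titan replicate 5). Mmp9 was dimmer in liver than in the reference on all 16 arrays, with ratios from -0.92 to -0.15.

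In females all 10 members had a higher mean ratio after maternal UV-Titan, against 58.5% of all genes. The differences ran from 0.27 (Mmp9) to 0.63 (Mmp8) with a median of 0.49, and the median over all genes was 0.02. Mmp8, Ngp, Mmp9, Mpo, Camp, Ltf and S100a9, 7 of the 10, had an unadjusted p under 0.05 and a higher mean, as did 5.41% of all genes. The count was 3 without female control replicate 40 or 25 and 2 with the scanner software's processed signals. After Benjamini-Hochberg adjustment over all genes in limma, 0 members passed, as 0% of all genes did, and their adjusted p ran from 0.214 to 0.769. In the liver channel alone all 10 were again higher, against 49.7% of all genes, with differences from 0.19 (Prtn3) to 0.57 (Mmp8 and Ngp) and a median of 0.38. On that scale 7 members had an unadjusted p under 0.05, as did 1.56% of all genes in this direction, the median over all genes was -0.00073, and every member had a limma adjusted p of 1. The count of 7 in red alone became 2 without female control replicate 40 and 4 without female UV-Titan replicate 2 or 21.

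In males the ratios did not share a direction. Prtn3, Camp, Mmp8 and Mmp9, 4 of 10, had a higher mean with UV-Titan, against 56.6% of all genes, and the differences ran from -0.23 (Ctsg) to 0.35 (Mmp8) with a median of -0.05. Mmp8 and Mmp9 had an unadjusted p under 0.05, and 3.13% of all genes did in this direction. In the liver channel alone 9 of the 10 were higher, all but Ctsg, against 51.3% of all genes, with a median of 0.12. Ltf and Mmp8 had an unadjusted p under 0.05 there, beside 1.6% of all genes. The limma adjusted p of the members lay between 0.951 and 0.999 on both scales, and 0% of all genes passed. Without slide 5, which removes only replicate 17 from the males, 9 of 10 male ratios were above 0, and with slide as a fixed term 7 were. Without male UV-Titan replicate 17 alone the count was again 9.

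**Figure D1:**
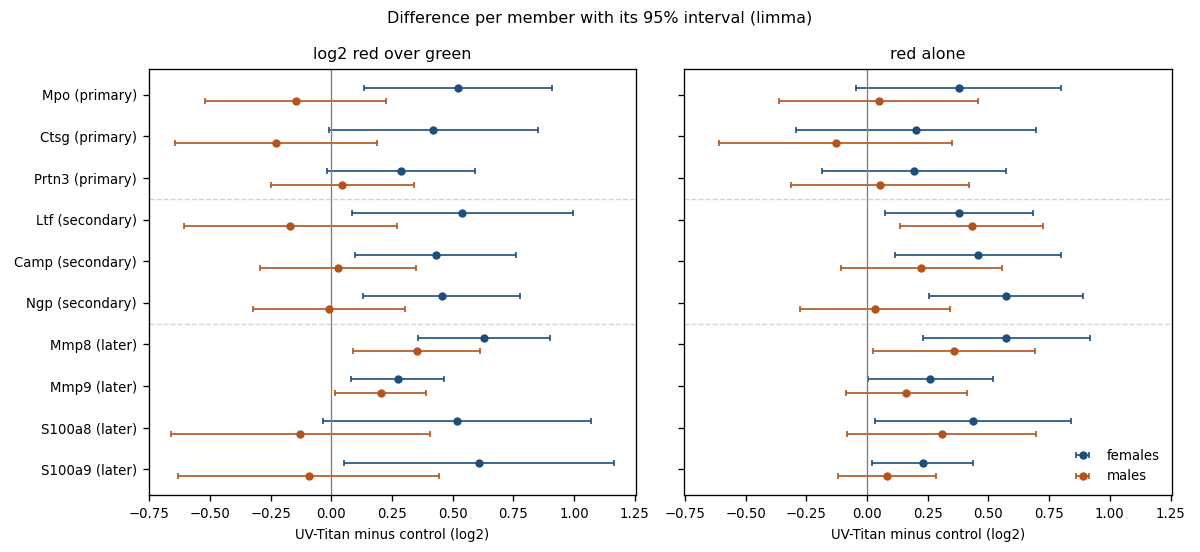
UV-Titan minus control for each member (points, log2) with its 95% interval from limma, in females (blue) and males (brown), by ratio (left) and in the liver channel alone (right). All 10 female points lie above 0 in both panels, and the male points lie on both sides of 0 by ratio and above it for 9 of 10 members in red alone.

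Mpo, which makes hypochlorous acid from hydrogen peroxide, had ratios of 6.12, 5.93 and 5.75 in female control replicates 35, 40 and 25 and of 6.65, 6.74, 6.44, 6.58 and 5.88 in female UV-Titan replicates 2, 8, 21, 10 and 16. Only replicate 16 of the exposed females lay within the range of the controls. The difference was 0.52 ± 0.18 (limma adjusted p = 0.660).

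In males the Mpo ratio was 6.37, 6.35, 6.42 and 6.46 in control replicates 41, 31, 43 and 33 and 6.31, 6.52, 6.47 and 5.72 in UV-Titan replicates 4, 5, 3 and 17. The controls spanned a narrow range, and the exposed males lay on both sides of it, with replicate 17 far below. The difference was -0.15 ± 0.18. The 3 lowest of the 16 Mpo ratios, 5.72 to 5.88, were the 3 arrays of slide 5. The Mpo difference in red alone was 0.38 ± 0.20 in females and 0.05 ± 0.19 in males.

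Ctsg, a chymotrypsin-like serine protease, had ratios of 5.49, 5.15 and 4.68 in the female controls and of 5.61, 5.70, 5.54, 5.80 and 4.97 in the exposed females, in the same replicate order. Again replicate 16 was the one exposed female inside the control range. The difference was 0.42 ± 0.20 in females, 0.21 ± 0.21 without female control replicate 25, and -0.23 ± 0.20 in males. The 3 arrays of slide 5 were the lowest 3 of 16 for Ctsg both by ratio (4.68 to 4.97) and in red alone (12.15 to 12.38). For Ctsg in red alone it was 0.20 ± 0.23 in females, and -0.13 ± 0.23 in males.

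Prtn3, the elastase-like protease of the primary granule, had female ratios of 1.68 to 2.25 in controls and 1.93 to 2.42 with UV-Titan, and the groups overlapped. Its difference was 0.29 ± 0.14, moved to 0.19 without female control replicate 25 and to 0.47 without replicate 35, and was 0.04 ± 0.14 in males. In red alone the values were 0.19 ± 0.18 and 0.05 ± 0.17.

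**Figure D2:**
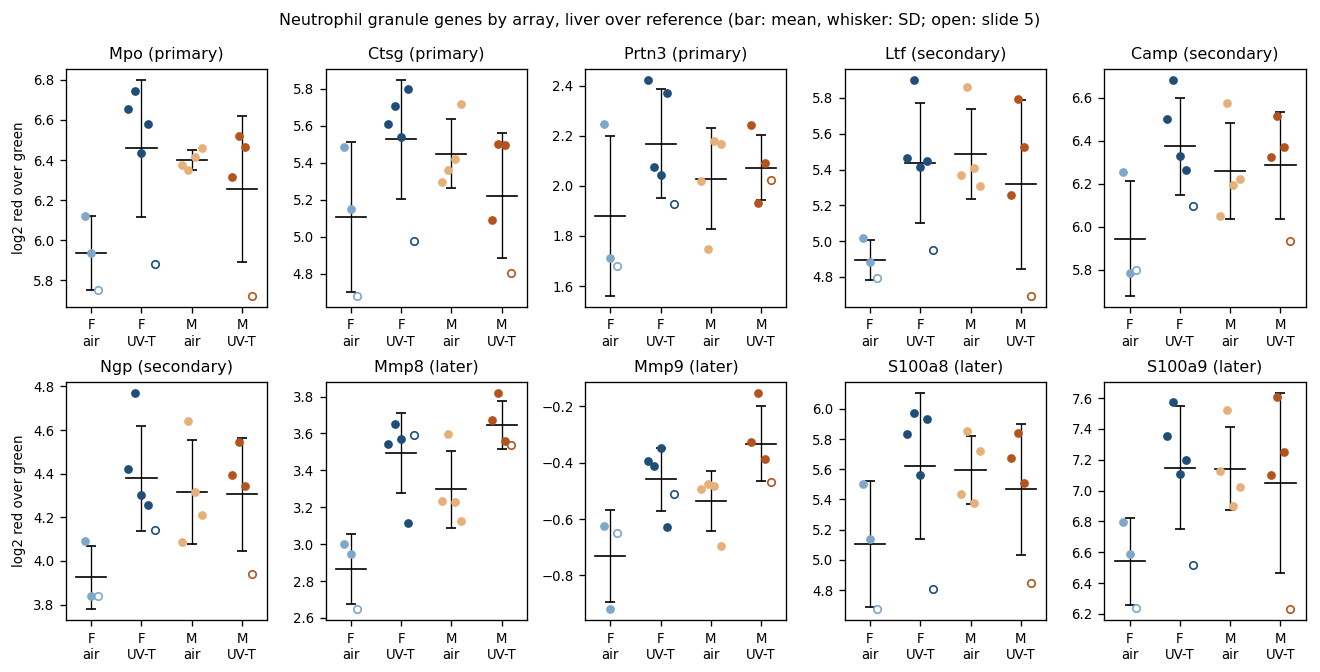
Log2 ratio of red over green (liver over reference) of the 10 members on each of the 16 arrays, with the mean (line) and SD (whisker) of each group (3 female controls, 5 exposed females, 4 males each), and the arrays of slide 5 as open points. For Mpo, Ctsg, S100a8 and S100a9 the 3 open points are the lowest 3 of the 16 (for Mpo from 5.72 to 5.88), and the y axes differ between panels.

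Among the secondary granule genes, Ngp, a cystatin-like protein of specific granules, separated the female groups on both scales. Its ratio was 4.09, 3.84 and 3.84 in female control replicates 35, 40 and 25 and 4.42, 4.77, 4.30, 4.26 and 4.14 in female UV-Titan replicates 2, 8, 21, 10 and 16. In red alone the controls had 12.02, 11.89 and 12.07 and the exposed females 12.47, 12.59, 12.76, 12.74 and 12.28. All exposed females lay above all female controls.

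Ngp and Mmp8 were the 2 members with this separation by ratio, which 3.17% of all genes showed, and Ngp was the 1 member with it in red alone, beside 1.11% of all genes. The Ngp difference in females was 0.45 ± 0.15 by ratio (limma adjusted p = 0.658) and 0.57 ± 0.15 in red alone. In males it was -0.01 ± 0.15 and 0.03 ± 0.15. The female minus the male difference in red alone was 0.54 ± 0.21 for Ngp, with a limma adjusted p of 0.973.

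Ltf, the iron-binding lactoferrin, had ratios of 5.01, 4.88 and 4.79 in the female controls and of 5.47, 5.90, 5.42, 5.45 and 4.95 in the exposed females. Replicate 16 alone fell inside the control range. The difference was 0.54 ± 0.21, and 0.35 ± 0.09 with slide as a fixed term. In males Ltf pointed different ways on the 2 scales, with -0.17 ± 0.21 by ratio and 0.43 ± 0.14 in red alone.

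The male red values of Ltf were 13.52, 13.77, 13.96 and 13.32 in control replicates 41, 31, 43 and 33 and 14.17, 13.85, 14.07 and 14.20 in UV-Titan replicates 4, 5, 3 and 17. Only replicate 5 of the exposed males lay below the highest control. In the reference channel, which held the same RNA on every array, Ltf was also higher on the male UV-Titan arrays, by 0.56 ± 0.23, and replicate 17 had the highest green value of the 16, 8.90. The second Ltf probe gave 0.50 in females and 0.0044 in males by ratio, and 0.59 and 0.30 in red alone, and its ratios correlated with those of the chosen probe at r = 0.944 over the 16 arrays.

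Camp had ratios of 5.78 to 6.25 in female controls and 6.10 to 6.68 in exposed females, and the groups overlapped. The difference was 0.43 ± 0.16 by ratio and 0.46 ± 0.16 in red alone, and 0.29 in red alone without female control replicate 40, which had the lowest Camp value. In males it was 0.03 ± 0.15 and 0.22 ± 0.16.

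**Figure D3:**
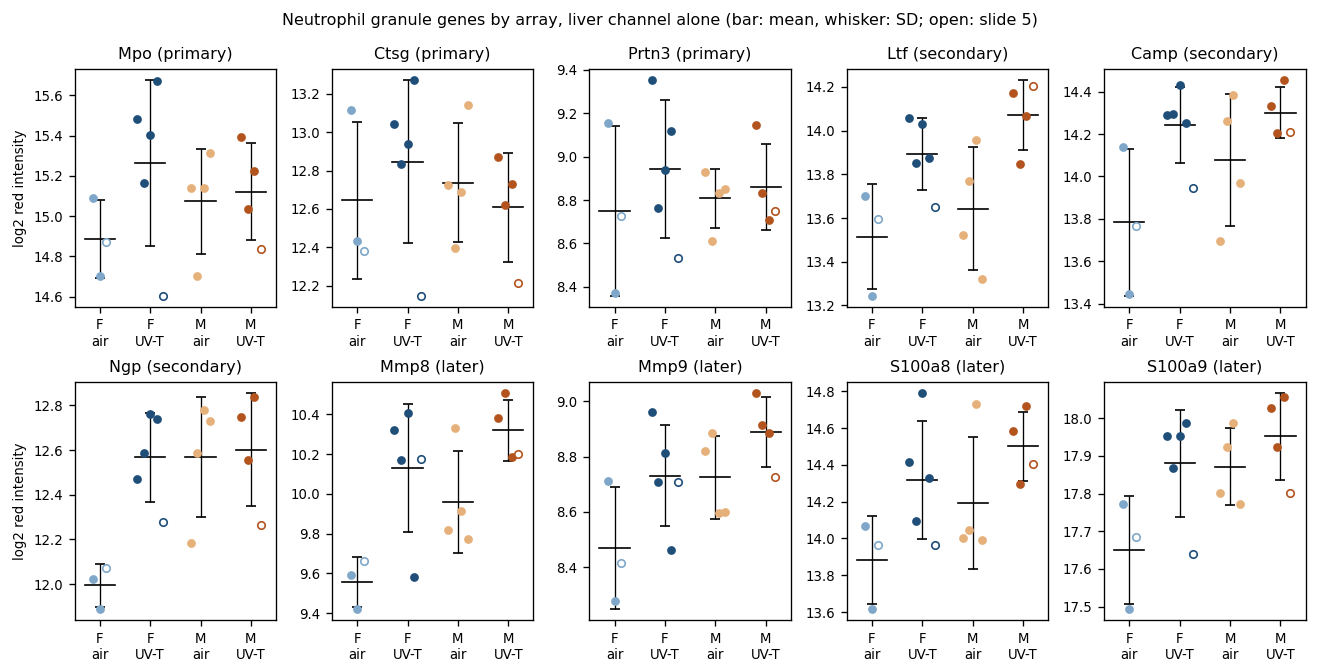
Liver channel alone (log2 red intensity, quantile-normalised between arrays) of the 10 members on each of the 16 arrays, with the mean (line) and SD (whisker) of each group and the arrays of slide 5 as open points. All 5 exposed females lie above all 3 control females for Ngp, while for Mmp8 the exposed female replicate 10 (9.58) sits among the controls, and the y axes differ between panels.

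Of the later genes, Mmp8, the collagenase of neutrophil granules, was the member with the largest difference in both sexes by ratio. Its ratio was 3.00, 2.94 and 2.65 in female control replicates 35, 40 and 25 and 3.54, 3.65, 3.57, 3.11 and 3.59 in female UV-Titan replicates 2, 8, 21, 10 and 16. In males it was 3.24, 3.60, 3.23 and 3.12 in control replicates 41, 31, 43 and 33 and 3.67, 3.82, 3.56 and 3.54 in UV-Titan replicates 4, 5, 3 and 17. The female groups did not overlap, and in males control replicate 31 lay within the exposed range while the other 3 controls lay below all exposed males.

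The Mmp8 difference was 0.63 ± 0.13 in females (limma adjusted p = 0.214) and 0.35 ± 0.12 in males (adjusted p = 0.951). Averaged over both sexes, all 10 members were above 0 by ratio (60.5% of all genes) and in red alone (50.5%), and 2 by ratio (5.53% of all genes) and 7 in red alone (1.8%) had an unadjusted p under 0.05. For Mmp8 this average was 0.49 ± 0.09, a fold of 1.40, with a limma adjusted p of 0.0924, the lowest of the members in any exposure comparison by ratio or in red alone. In that comparison 0% of all genes passed on either scale. With slide as a random block the averaged difference was 0.47 ± 0.08 and its limma adjusted p was 0.049966, while the other alternatives left it between 0.0657 and 0.883. With the scanner software's processed signals the Mmp8 ratio differences were 0.33 ± 0.21 in females and 0.05 ± 0.20 in males. In red alone Mmp8 was 0.57 ± 0.16 higher in females and 0.36 ± 0.16 in males, and no alternative moved the female value by over 1.5 times.

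Mmp9, the gelatinase that marks the last granules to form, differed by 0.27 ± 0.09 in females and 0.20 ± 0.09 in males by ratio. Its ratio was -0.49, -0.47, -0.48 and -0.70 in male control replicates 41, 31, 43 and 33 and -0.33, -0.15, -0.39 and -0.47 in UV-Titan replicates 4, 5, 3 and 17. All exposed males lay above all male controls, with UV-Titan replicate 17 at -0.467 and control replicate 31 at -0.474 the nearest pair, and 1.92% of all genes showed this separation. Mmp9 was the 1 member that did so in males by ratio, and 0 did in red alone, beside 0.893% of all genes. The second Mmp9 probe gave 0.19 in females and 0.24 in males by ratio.

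S100a9 had ratios of 6.80, 6.59 and 6.24 in the female controls and of 7.35, 7.57, 7.11, 7.20 and 6.51 in the exposed females. Replicate 16 was the lowest of the exposed and lay among the controls. The difference was 0.61 ± 0.26 by ratio and 0.23 ± 0.10 in red alone. S100a9 was the brightest member in red, at 17.49 to 18.06, and quantile normalisation limits how far the brightest probes can move. How far this limit shapes its red values was not tested. In the reference channel S100a9 differed by -0.23 ± 0.20 in females, and by 0.24 ± 0.19 in males, where the ratio difference was -0.09 ± 0.25 and the red difference 0.08 ± 0.10.

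S100a8 differed by 0.52 ± 0.26 in females by ratio, 0.30 ± 0.29 without female control replicate 25, and by 0.44 ± 0.19 in red alone. In males it was -0.13 ± 0.25 by ratio and 0.31 ± 0.18 in red alone. The 3 arrays of slide 5 were the lowest 3 of 16 by ratio for S100a8 (4.67 to 4.85) and for S100a9 (6.23 to 6.51).

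Taking the stages as means of their members, each centred on its mean over the 16 arrays, the female difference by ratio was 0.41 ± 0.17 for the primary, 0.47 ± 0.19 for the secondary and 0.51 ± 0.17 for the later genes. The order was not the same in red alone, with 0.26 ± 0.22, 0.47 ± 0.14 and 0.38 ± 0.11. In males the 3 stages stood at -0.11 ± 0.17, -0.05 ± 0.18 and 0.08 ± 0.17 by ratio and at -0.01 ± 0.21, 0.23 ± 0.14 and 0.23 ± 0.11 in red alone. The male later mean by ratio joined genes that differed in direction, Mmp8 (0.35) and Mmp9 (0.20) with S100a8 (-0.13) and S100a9 (-0.09). In this fit without slide the primary stage was the lowest of the 3 in both sexes and on both scales, which did not hold within every slide. Leaving out 1 array or changing the processing moved the female primary mean in red alone to 0.13 and 0.44 when control replicate 40 or 35 was left out, 0.41 when exposed replicate 16 was, 0.49 with array weights and 0.50 with median centring. All 3 male stage means by ratio took either sign over the alternatives, from -0.19 to 0.015 for the primary, -0.16 to 0.099 for the secondary and -0.023 to 0.22 for the later genes. Without male UV-Titan replicate 17 they were 0.0011, 0.099 and 0.22, and without replicate 5 the secondary and later means were -0.16 and -0.023. In red alone the male primary mean ran from -0.11 to 0.10, while the secondary and later means stayed above 0.

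Most gaps between the stages in each sex were below or not far above their SE. The later minus the primary stage within each animal differed between exposed and control females by 0.10 ± 0.13 by ratio and by 0.12 ± 0.21 in red alone. In males the same gap was 0.19 ± 0.13 and 0.24 ± 0.20. For the secondary minus the primary stage it was 0.06 ± 0.16 and 0.21 ± 0.19 in females and 0.06 ± 0.16 and 0.24 ± 0.19 in males. The largest gap beside its SE was the later minus the secondary stage in males by ratio, 0.13 ± 0.06. In red alone this male gap was -0.0011 ± 0.09, and in females it was 0.03 ± 0.06 by ratio and -0.09 ± 0.09 in red alone.

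The 3 slides that held both female groups gave female differences of 0.28, 0.65 and 0.22 for the primary, 0.34, 0.49 and 0.25 for the secondary and 0.42, 0.47 and 0.37 for the later stage by ratio, on slides 1, 4 and 5, each from 1 pair of arrays. In red alone the primary stage gave 0.17, 0.85 and -0.23, the secondary 0.32, 0.76 and 0.15 and the later 0.38, 0.39 and 0.19. All stages were higher in each pair except the primary stage in red on slide 5. In males, on slides 1, 2 and 3, the later stage gave 0.21, 0.15 and 0.23 by ratio and 0.40, 0.11 and 0.15 in red alone, higher in all 3 pairs. The male primary stage gave -0.01, 0.16 and 0.01 by ratio and 0.20, 0.26 and 0.00042 in red alone, and the male secondary stage 0.16, -0.07 and 0.11 by ratio and 0.62, -0.0039 and 0.08 in red alone. The primary stage was the highest of the 3 on slide 4 in females on both scales, and on slide 2 in males on both scales.

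Hepatocyte transcripts moved with the members by ratio, and much less in red alone. Over 7 hepatocyte markers (Alb, Ttr, Apoa1, Tat, Cps1, Fgb and Ahsg) all 7 had a higher ratio in exposed females, against 58.5% of all genes. Their mean differed by 0.54 ± 0.20, beside 0.41 to 0.51 for the 3 granule stages. In the reference channel, which held the same RNA on every array, most of these markers were lower on the arrays of exposed females. The green differences were -0.85 (Alb), -0.52 (Ttr), -0.26 (Apoa1), -0.32 (Cps1), -0.39 (Fgb) and -0.48 (Ahsg), and 0.14 for Tat. The primary, secondary and later stages differed there by -0.09 ± 0.11, 0.04 ± 0.16 and -0.06 ± 0.13. The mean level of the list by ratio was 4.70 to 4.95 in female controls, 5.06 to 5.73 in exposed females, 5.31 to 5.72 in male controls and 4.67 to 5.67 in exposed males. In red alone 4 of the 7 were higher in exposed females, against 49.7% of all genes, and the mean differed by 0.10 ± 0.07. Tat had the largest female difference there, 0.53 ± 0.23, and the others lay between -0.07 and 0.21. In males the red difference of Tat was -0.85 ± 0.22, and the others lay between -0.08 and 0.29. Levels of the list in red were 16.07 to 16.14 in female controls and 16.06 to 16.37 in exposed females. Quantile normalisation, used for red alone, limits how far the brightest probes can move. From ratio to red alone the SE of the female difference fell for Alb, Apoa1, Fgb and Ahsg, and rose for Ttr, Tat and Cps1. How far this limit shapes the red values of the list was not tested.

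Across the 16 arrays, after the group means were taken off, the hepatocyte mean by ratio correlated with the primary stage at r = 0.62, with the secondary at 0.97 and with the later at 0.94. Among single members the ratio correlation ran from -0.01 for Prtn3 (-0.0065) to 0.98 for Ltf. The stage correlations in red alone, under the same limit of quantile normalisation, were -0.43, 0.12 and -0.09. The points of each array share 1 hybridisation, and by ratio also 1 reference channel. In green alone the hepatocyte markers and the stages correlated at 0.27, 0.69 and 0.83, and S100a9 at 0.93. The part of the reference channel in the ratio differences was not tested.

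**Figure D4:**
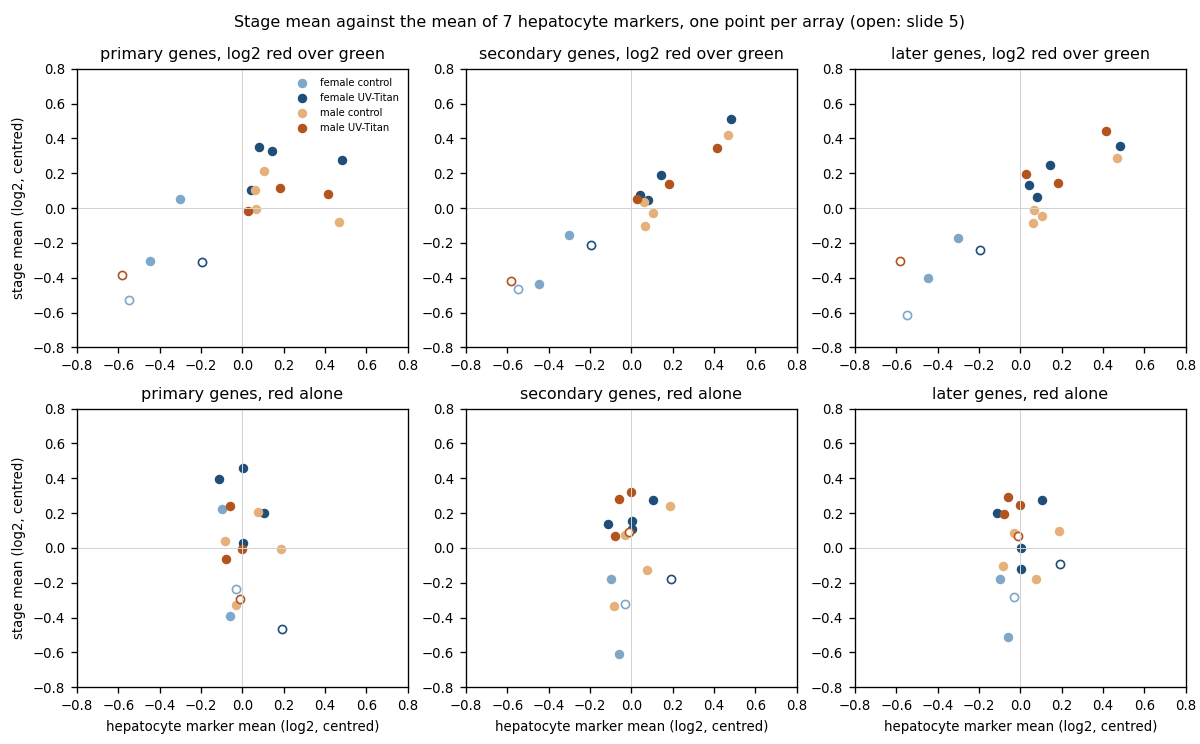
Mean of each granule stage (y axis, log2, each gene centred on its mean) against the mean of 7 hepatocyte markers (x axis, log2, centred) on the 16 arrays, by ratio (top) and in red alone (bottom), with arrays of slide 5 as open points. By ratio the points of the secondary and later stages lie along a line (r = 0.97 and 0.94 after group means were taken off), and in red alone the hepatocyte means span a narrow range and the points do not line up (r = 0.12 and -0.09). Quantile normalisation between arrays limits how far the brightest probes can move in red alone.

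Within groups, some members followed one another closely and others did not. In red alone, with group means taken off, the 3 pairs of primary genes correlated at r = 0.93 (Mpo and Ctsg), 0.79 (Mpo and Prtn3) and 0.76 (Ctsg and Prtn3). The primary and the secondary genes had a median r of 0.40 over 9 pairs. Mmp8 and Mmp9 correlated with each other at 0.70, and Mmp8 with Mpo at -0.35 and with Ctsg at -0.32. S100a8 and S100a9 correlated at 0.76, and Camp with S100a9 at 0.83. The later genes were no close set, since Mmp8 correlated with S100a8 at 0.12 and with S100a9 at 0.11. Their 6 pairs had a median r of 0.26. Over all 45 pairs the median was 0.41 and the range -0.35 to 0.93.

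By ratio the same 45 pairs had a median of 0.55 and a range from -0.33 (Prtn3 and Mmp8) to 0.96 (Ltf and S100a9). The secondary genes were the closest set there, with 0.88 to 0.95, and Mpo correlated with S100a8 at 0.91, against 0.52 in red alone. These are descriptions over 16 arrays that share slides and, by ratio, the reference channel.

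**Figure D5:**
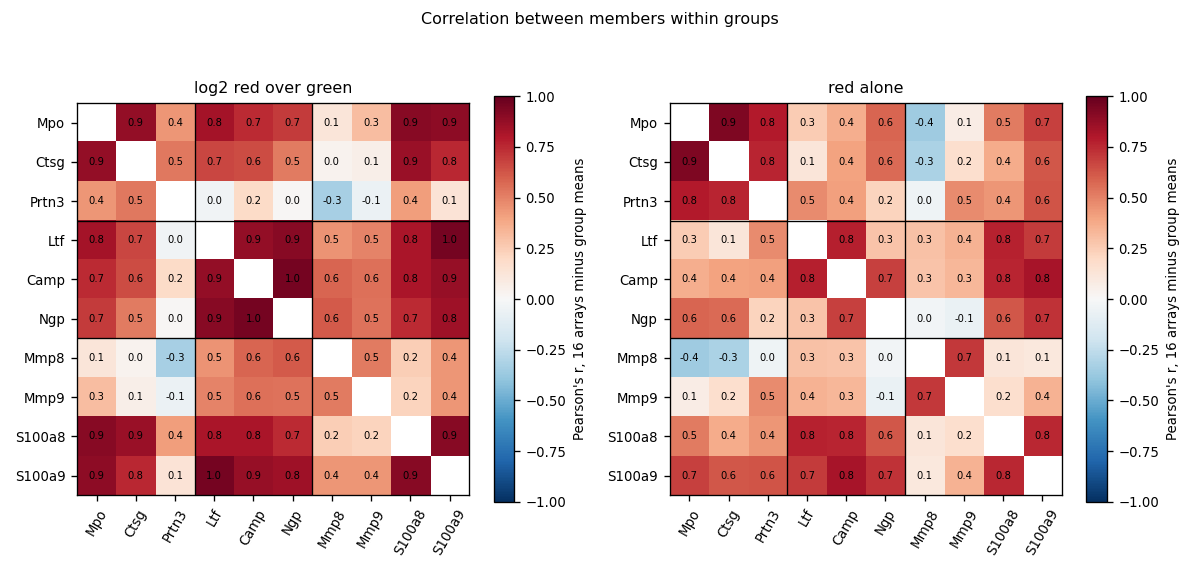
Pearson's r between each pair of members over the 16 arrays with group means taken off, by ratio (left) and in red alone (right), with lines between the primary, secondary and later genes. In red alone the 3 primary genes form a block (0.76 to 0.93) and Mmp8 lies between -0.35 and 0.29 with the primary and secondary genes.

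The genes most like each stage differed between the scales. By ratio, the 4 genes outside the members with the highest r to the primary stage were Hdc, which makes histamine (0.92 by ratio and 0.85 in red alone), a transcript known to the array as ENSMUST00000077110 (0.92 and 0.51), Csf2ra, the alpha chain of the GM-CSF receptor (0.92 and 0.76), and Fcnb, a ficolin of myeloid cells (0.90 and 0.92). For the secondary stage they were Tfr2, a transferrin receptor of hepatocytes and erythroid cells (0.99 and 0.65), Gpd1, a glycerol phosphate dehydrogenase (0.98 and 0.47), Tst, a sulfurtransferase (0.97 and 0.43), and H2-Q10, a class I molecule secreted by liver (0.97 and 0.64). For the later stage they were Eraf, the globin-stabilising protein of red cell precursors (0.98 and -0.10), Apoh, a plasma protein made in liver (0.98 and -0.03), 1300017J02Rik (0.97 and -0.12) and Upb1, an enzyme of pyrimidine breakdown (0.97 and 0.21). Most of these secondary and later neighbours had a much lower r in red alone.

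Ranked in red alone, a ranking added after the values were seen, the primary stage was nearest to Ms4a3, a membrane protein of granulocyte and monocyte precursors (r = 0.94), Prssl1, an older name of the granule protease gene Prss57 (0.93), Fcnb (0.92) and Elane, the neutrophil elastase gene (0.90). The secondary stage was nearest to Stfa3, a stefin that inhibits cysteine proteases (0.91), Cstdc6 (0.90), Qk, an RNA-binding protein (0.89), and LOC433016 (0.88). The later stage was nearest to Stfa3 (0.91), 9430079G20Rik (0.87), Paxx, a DNA repair factor (0.86), and Stfa2 (0.86). The stefin A genes are close copies of each other, so their probes may cross-hybridise.

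Other neutrophil genes were taken as a companion list of 41, of which 38 were on the array and 34 were tested. In females by ratio 33 of the 34 were higher with UV-Titan and 27 had an unadjusted p under 0.05, with a median difference of 0.37 (all genes 0.02), beside 58.5% of all genes higher and 5.41% higher with such a p. In red alone 32 were higher and 15 had an unadjusted p under 0.05, with a median of 0.27, beside 49.7% and 1.56% of all genes. In males 28 of 34 were higher by ratio and 31 in red alone, with 5 under an unadjusted p of 0.05 on each scale and medians of 0.12 and 0.15. Of all genes 56.6% and 51.3% were higher in males, and 3.13% and 1.6% were higher with such a p. The companion counts take such a p in either direction. Of all 19363 genes, 1294 in females and 958 in males had it in either direction by ratio. In red alone 602 and 621 did. In limma 0 of the 34 passed after adjustment over all genes in either sex on either scale.

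The companions were also counted by role, again with an unadjusted p under 0.05 in either direction. In females 1294 of all 19363 genes by ratio and 602 in red alone had such a p. Those higher with such a p were 5.41% and 1.56% of all genes. Of 8 genes listed for early precursors (Elane, Ms4a3, Prssl1, Gfi1, Cebpa, Ctsc, Nkg7 and Hp) all 8 were higher in females by ratio, 3 with an unadjusted p under 0.05. In red alone 7 were higher and 0 had an unadjusted p under 0.05. This list was mixed, and Nkg7 was also among the lymphocyte markers. Its r to the primary stage in red alone was 0.90 for Elane, 0.93 for Prssl1 and 0.94 for Ms4a3. It was 0.46 for Gfi1, 0.52 for Nkg7, 0.22 for Hp, -0.21 for Cebpa and -0.39 for Ctsc. The list is therefore no measure of neutrophil precursors alone. Of 19 further granule and membrane genes 18 were higher on both scales, 17 by ratio and 12 in red alone with an unadjusted p under 0.05. Of 7 receptor genes all 7 were higher on both scales, 7 and 3 with an unadjusted p under 0.05. The median female difference in red alone was 0.18 for the early precursor, 0.35 for the granule and membrane and 0.19 for the receptor genes, and the difference between these lists was not tested.

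The 6 companions with the smallest unadjusted p in females by ratio were Itgb2l, Ltb4r1, Olfm4, Selplg, Fcnb and Retnlg. Itgb2l, a beta-2-like integrin, differed by 0.53 ± 0.09 in females (limma adjusted p = 0.0847) and 0.20 ± 0.09 in males. Ltb4r1, the leukotriene B4 receptor, differed by 0.56 ± 0.11 and 0.11 ± 0.11, and in red alone by 0.55 ± 0.14 in females. Olfm4, a protein of a subset of specific granules, differed by 0.50 ± 0.12 in females and 0.07 ± 0.12 in males. Selplg, the P-selectin ligand, differed by 0.29 ± 0.08 and 0.23 ± 0.07, Fcnb by 0.49 ± 0.13 and 0.21 ± 0.13, and Retnlg, a resistin-like protein of neutrophils, by 0.57 ± 0.15 and 0.14 ± 0.15.

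In exposed females the list means of megakaryocyte, monocyte and lymphocyte markers were higher on both scales. Those of Kupffer cell and erythroid markers were higher by ratio, with little difference in red alone. Of all genes 58.5% were higher in females by ratio and 49.7% in red alone. All 7 megakaryocyte and platelet markers were higher in females on both scales, with a list mean higher by 0.54 ± 0.10 by ratio and 0.47 ± 0.09 in red alone, and levels in red of 10.82 to 10.91 in female controls and 11.11 to 11.45 in exposed females. Of 4 monocyte markers 4 were higher by ratio and 3 in red alone, with list means higher by 0.31 ± 0.09 and 0.21 ± 0.08, and red levels of 8.53 to 8.67 and 8.64 to 9.00. Kupffer cell and macrophage markers, 7 of 8 higher by ratio and 4 of 8 in red alone, differed by 0.21 ± 0.09 and 0.05 ± 0.12. Erythroid markers differed by 0.26 ± 0.11 by ratio and -0.05 ± 0.20 in red alone, and lymphocyte markers, 5 of 5 higher on both scales, by 0.24 ± 0.09 and 0.21 ± 0.14. The part of these cells in the difference of S100a8, S100a9 and the other members was not tested.

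Markers of some other blood cells were also higher in exposed males, where 56.6% of all genes were higher by ratio and 51.3% in red alone. Monocyte markers, 4 of 4 higher on both scales, differed by 0.20 ± 0.08 by ratio and 0.19 ± 0.08 in red alone, with red levels of 8.55 to 8.86 in male controls and 8.82 to 8.92 in exposed males. Megakaryocyte and platelet markers, 7 of 7 higher on both scales, differed by 0.18 ± 0.10 and 0.19 ± 0.09, with ratio levels of 2.70 to 3.02 and 2.76 to 3.12. Eosinophil markers, 4 of 4 higher on both scales, differed by 0.34 ± 0.15 and 0.43 ± 0.19, with red levels of 8.14 to 9.03 and 8.86 to 9.32. Basophil and mast cell markers, 3 of 4 higher on both scales, differed by 0.23 ± 0.13 and 0.24 ± 0.15 in males and by 0.10 ± 0.13 and 0.01 ± 0.15 in females. The male groups overlapped in each of these levels. So did the female groups in eosinophil red levels, 8.52 to 9.15 in controls and 8.78 to 9.08 with UV-Titan. Kupffer cell and macrophage markers had median levels by ratio of 3.27 in male controls and 3.28 in exposed males (red 12.19 and 12.26). For erythroid markers the medians were 3.79 and 3.80 (red 12.50 and 12.87), and for lymphocyte markers 1.11 and 1.16 (red 9.14 and 9.23). For stem and progenitor cell markers they were 0.60 and 0.64 (red 9.07 and 9.08). The part of these cells in the male values of the members was not tested.

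Transcripts of other tissues were high on some male arrays. Exocrine pancreas markers had list levels by ratio of 0.14 to 2.93 in male controls (median 1.15) and 0.09 to 0.26 in exposed males, and in red alone of 6.94 to 10.44 and 6.79 to 7.16. The lowest male control thus lay within the range of the exposed males, and the group difference of -1.17 ± 0.50 by ratio rested on the higher controls. Skeletal muscle markers had ratio levels of -1.68 to -1.44 in male controls and -1.58 to 1.55 in exposed males, whose median was -1.42. In females the skeletal muscle and the stem and progenitor cell lists differed by 0.09 ± 0.58 and 0.24 ± 0.09 by ratio and by 0.14 ± 0.60 and 0.18 ± 0.10 in red alone.

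Females and males were compared directly. The female minus the male exposure difference was above 0 for all 10 members by ratio, against 52.5% of all genes, with a median of 0.55, and for 9 of 10 in red alone, all but Ltf, against 49.7%, with a median of 0.18. By ratio 4 members (Mpo, Ctsg, Ltf and Ngp) had an unadjusted p under 0.05, beside 2.54% of all genes in this direction. In red alone 1 did (Ngp), beside 1.21%. The limma adjusted p was 0.973 to 0.992 for all members and scales, and 0% of all genes passed. A difference between the sexes in the response was not detected for any member with these numbers of arrays.

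Over both exposures, males had higher mean ratios than females for all 10 members, by 0.02 to 0.29, against 48.6% of all genes, and in red alone for 8 of 10, by -0.07 to 0.30, against 47.2%. Mmp8 and Mmp9 had an unadjusted p under 0.05 on both scales, at 0.29 ± 0.09 and 0.16 ± 0.06 by ratio, as did Ngp and S100a9 in red alone, beside 2.34% of all genes by ratio and 1% in red alone in this direction. The female controls lay lowest of the 4 groups in mean ratio for all 10 members. No member passed after adjustment in limma (lowest adjusted p = 0.981), while 0.0465% of all genes did by ratio and 0.0362% in red alone.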

How the data were processed

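RNA from the liver of each offspring was hybridised with a reference RNA on 16 two-colour Agilent arrays. The deposited scanner files hold spot intensity in red and green, from Agilent Feature Extraction (9.5.3.1 per the labels, 9.5.1.1 per the file headers). The authors' deposited log2 ratios, whose normalisation is not given in the sources used here, served as an alternative. Set against each array's own ratios they ran as red over green (r from 0.983 to 0.992, slope from 0.992 to 1.11), with column medians from -0.0449 to -0.0372. The lowest r and the highest slope were those of female control replicate 25.

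Here mean and background signals were corrected with normexp (offset 50). Ratios were normalised within each array by loess with control spots at weight 0, and red or green alone between arrays by quantiles. Spots of a probe were averaged, probes well above background on at least 3 arrays were kept, and each gene took its brightest probe in red, which left 19363 genes. Of these, 12356 symbols matched the RefSeq table of GRCm38.p6. Groups were fitted with limma 3.58.1 in R 4.3.3, two-sided, with Benjamini-Hochberg adjusted p under 0.05 as the threshold over all genes, and intervals are 95%. The fit was tested on simulated data. Stage means have an SE and no p. Arrays of a group correlated at 0.969 to 0.991. Precision is set by how many arrays each group has.

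The text names the 10 members, the 6 companion genes with the smallest unadjusted p in females by ratio, and the 4 genes with the highest r to each stage. Members and lists were chosen with earlier results of these data known. Alternatives covered background correction, the authors' ratios, probe filters and probe choice, scaling of red, slide blocks, array weights and left-out arrays. Leaving out slide 5 was added after seeing the data.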

Additional observations from a re-analysis of the deposited data

Results flagged for a closer look

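Of 78 groups of 4 or 5 arrays checked for a value far from the rest, 4 had one, and chance alone gives about 1 in 20. Mmp8 in female UV-Titan replicate 10 was low on both scales, with a ratio of 3.11 against 3.54 for the next lowest exposed female, and 9.58 in red alone against 10.17. The Mmp9 ratio of male control replicate 33 was -0.70 (-0.696), and the next lowest male control had -0.49. S100a8 in red alone was 14.73 in male control replicate 43, and the next highest male control had 14.04. Without female UV-Titan replicate 10 the averaged Mmp8 ratio difference was 0.54 ± 0.08.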

How the results depend on the processing

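Across 28 alternatives, 16 of which left out 1 array, 148 results gave 3912 values, and 3778 kept their direction and side of the threshold or, for values with no test, moved by less than 1 SD. Among the latter, 27 values of stage means changed sign. All 10 members stayed above 0 in females in all 27 alternatives run on each scale. No paired analysis by replicate number was possible because the groups share none, and slide was used as a block and for pairs within slides instead. The causes of the changes below were not tested. In these sentences sex means males minus females over both exposures, and interaction the female minus the male difference.

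Counts of genes past the adjusted threshold by ratio, 0 in females and averaged over the sexes, became 6 and 6 with array weights, 1 and 1 with slide as a fixed block, and 11 for the average with slide as a random block. Leaving out 1 array gave 0 to 1 in females and 0 to 11 for the average, the highest without male control replicate 43. In males by ratio 1 gene passed with the scanner software's processed signals. For sex, 9 genes by ratio and 7 in red alone became 3 and 2 with probes well above background on all 16 arrays, and 12 in red alone with a random block. Members with an unadjusted p under 0.05 in females by ratio numbered 2 with processed signals and 3 to 10 without 1 array, and in red alone 2 to 8. In males there were 0 by ratio with processed signals, 1 with the authors' deposited ratios, 1 by ratio and 1 in red without the 3 male arrays with pancreas or muscle transcripts, 0 in red with median centring, and 1 to 2 without 1 array on either scale. Male members above 0 by ratio numbered 2 with processed signals, 7 with a fixed block, 9 without slide 5 and 3 to 9 without 1 array.

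With processed signals the male ratio difference was -0.0046 for Prtn3 and -0.076 for Camp, sex by ratio was -0.052 for Prtn3, and the Ltf interaction in red was 0.029. With the authors' deposited ratios sex was -0.019 for Ctsg and -0.021 for Prtn3. A fixed block gave male ratio differences of 0.026 for Ngp, 0.085 for S100a8 and 0.064 for S100a9, sex by ratio of -0.061 for Ctsg, and 0.051 for Ctsg in male red. A random block gave 0.0028 for Ngp in males by ratio and -0.0058 for Ctsg in sex. Array weights gave 0.033 for Ngp in males by ratio, 0.061 for the Ltf interaction in red and 0.059 for Prtn3 in sex in red. Without the 3 male arrays Ngp was 0.023 in males by ratio, Ctsg -0.072 in sex by ratio, Prtn3 -0.015 in male red and Prtn3 0.030 in sex in red. Without slide 5 the male ratio differences were 0.032 for Mpo, 0.039 for Ltf, 0.11 for Ngp, 0.079 for S100a8 and 0.18 for S100a9. Sex by ratio was then -0.086 for Ctsg and -0.045 for Prtn3, male red was 0.0029 for Ctsg, the Ltf interaction in red was 0.095, and sex in red was -0.017 for Mpo. Red centred on each array's median gave female secondary and later means of 0.75 and 0.64, interactions of 0.58, 0.61 and 0.46 for the primary, secondary and later means and 0.33 for Ltf. It gave male red of -0.053 for Mpo and -0.043 for Ngp, and sex of 0.058 for Ctsg and 0.074 for Prtn3. The mean over all probes gave interactions in red of 0.12 for Ltf and -0.017 for Mmp9.

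Without 1 array, the male ratio differences ran from -0.23 to 0.032 for Mpo, -0.049 to 0.094 for Prtn3, -0.33 to 0.039 for Ltf, -0.050 to 0.14 for Camp, -0.089 to 0.11 for Ngp, -0.25 to 0.079 for S100a8 and -0.28 to 0.18 for S100a9, all but that of Prtn3 highest without male UV-Titan replicate 17. In male red they ran from -0.076 to 0.14 for Mpo, -0.24 to 0.0064 for Ctsg, -0.044 to 0.10 for Prtn3 and -0.095 to 0.15 for Ngp. The average for Ctsg ran from -0.010 to 0.19 by ratio and -0.029 to 0.16 in red. Interactions ran from -0.025 to 0.13 for Mmp9 by ratio, and in red from -0.050 to 0.34 for Prtn3, -0.19 to 0.057 for Ltf and -0.051 to 0.22 for S100a8. Sex ran from -0.087 to 0.11 for Ctsg and -0.023 to 0.12 for Prtn3 by ratio, and in red from -0.061 to 0.084 for Mpo, -0.16 to 0.046 for Ctsg and -0.11 to 0.088 for Prtn3.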
